A study of Homo sapiens with 21 samples.

Results

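The genes described here are 10 that bring iron into the cell, store it, export it or sense it: TFRC, SLC11A2, STEAP3, FTH1, FTL, NCOA4, SLC40A1, ACO1, IREB2 and FBXL5. They were taken by symbol from the 66738 gene rows of the count table, on primary chromosomes only, together with the H3K4me3 regions at their 5′ ends. RS4;11 cells, an established line of acute lymphoblastic leukaemia of B-cell precursors with the KMT2A-AFF1 fusion, was kept for 24 h in 1 of 3 media. The control medium was complete (+Asn), the second lacked asparagine (-Asn), and the third lacked asparagine but held 10 µM ferric nitrate with 0.75 µM hinokitiol, an ionophore that carries iron across membranes (-Asn+Fe). Each medium had 3 RNA libraries, 3 libraries of H3K4me3, a histone mark of active promoters, and 1 input library. The labels do not say whether the other media held hinokitiol, so iron and hinokitiol cannot be told apart. They also do not say whether libraries of a medium came from separate cultures, and a p-value here then reflects library-to-library spread alone, possibly technical.

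Most cells take up iron as transferrin bound to the transferrin receptor, reduce it in the endosome, move it to the cytosol and keep the surplus inside ferritin shells. Iron regulatory proteins bind hairpins called iron-responsive elements when iron is scarce: binding in the 3′ untranslated region of TFRC mRNA protects that mRNA, and binding in the 5′ untranslated region of ferritin mRNAs blocks their translation. With ample iron the FBXL5 ubiquitin ligase degrades IREB2, and ACO1 takes up an iron-sulfur cluster and works as an aconitase instead. RNA libraries show mRNA levels only, not translation or protein.

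Total counts per RNA library lay between 29362707 and 42478518, and all 10 genes were among the 17939 tested after the filter on low counts. The cell line's own markers were present: 10 of 10 precursor B-cell markers lay at 1 CPM (counts scaled to library size, with TMM factors) or more in every library. Their summed level was 2871 to 2957 CPM with asparagine, 2583 to 2659 CPM without it and 2305 to 2396 CPM when iron was added, with no overlap, and its part in the results was not tested. PAX5, at 954 to 1379 CPM over all 9 libraries, led that sum. IGLL1 ranged from 43.8 to 311 CPM, RAG1 from 48.2 to 289, VPREB1 from 39.8 to 175 and DNTT from 25.3 to 116. Those extremes are over all 9 libraries and not split by medium, so the sum does not show how single markers differed between media. The remaining precursor B-cell markers ranged by smaller factors. Of the 5 erythroid markers, which would come with iron-handling red cell precursors, the summed level was at most 0.0886 CPM and AHSP had 0 counts. The 3 hepatocyte markers summed to at most 0.811 CPM, and TTR had 0 counts. Of the 5 markers of monocytes and macrophages, cells that also store and export iron, 1 reached 1 CPM in all libraries: CSF1R, at 9.16 to 17.0 CPM. LYZ was at most 1.45 CPM, CD14 0.454, CD163 0.187 and MARCO 0.0221. The sum of the 5 was 10.7 to 11.6 CPM with asparagine, 16.4 to 17.6 CPM without it and 13.4 to 14.7 CPM when iron was added, and its part in the results was not tested. Of the 5 T-cell markers, TRAC alone was at 254 to 369.9 CPM, and CD3D, CD3E, CD3G and CD2 were each at most 0.0983 CPM. One library stood apart: -Asn replicate 1 differed from the other -Asn libraries with a chi-square per degree of freedom of 37.0 and 40.8, against 5.73 between those others. In it, the 25% of genes with the shortest exon lengths lay a median 0.19 above the group mean on the log2 scale, and the longest 25% at -0.09. FTH1 and FTL, which have short exons, were highest in this library among the -Asn libraries, and TFRC and IREB2, which have long ones, were lowest. Its part in these values was not tested, and for several results the values without it are given too.

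In asparagine-free medium, 3 of the 10 genes rose (FTH1, FTL and FBXL5), 5 fell (TFRC, STEAP3, ACO1, IREB2 and SLC11A2) and 2 did not pass the test (NCOA4 and SLC40A1). Over all genes tested, 61.2% passed in this comparison, 31% of all genes higher and 30.2% lower, so 8 of 10 stands against a large background. The libraries of these media did not overlap for 8 of the 10 genes and for 65.5% of all genes tested. The median log2 fold change of the 10 was -0.38, and that of all genes tested 0.04. With iron added to asparagine-free medium, FTH1 and FTL rose, TFRC fell and 7 did not pass, where 30.8% of all genes tested passed, 14% higher and 16.8% lower. Libraries did not overlap for 5 of the 10 and for 43.2% of all. That comparison had a median of 0.06 over the 10 genes and -0.01 over all genes. Between -Asn+Fe and +Asn, the same count of 3 rose and 5 fell, with 64.7% of all genes passing, 32.9% higher and 31.9% lower. Here libraries did not overlap for all 10 genes, and for 70.6% of all tested. The median there was -0.40, and 0.05 over all genes. These comparisons share libraries, so their values stand side by side below. Calls are from edgeR's quasi-likelihood test at a Benjamini-Hochberg adjusted p under 0.05 over all genes tested, and ± is the SD over 3 libraries.

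**Figure D1:**
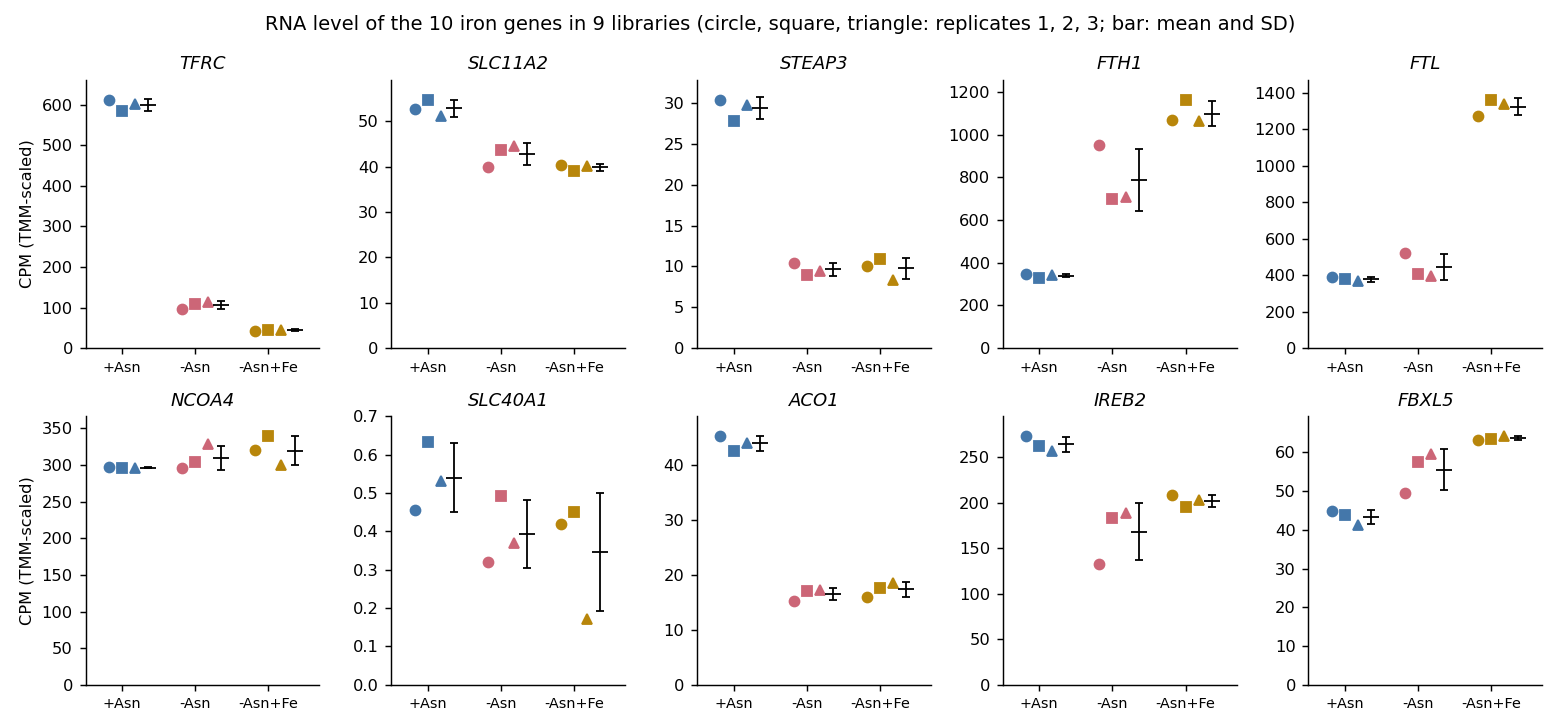
RNA level of each of the 10 genes in the 9 libraries, in TMM-scaled CPM on linear axes that start at 0; points are libraries and bars the mean and SD of 3. TFRC steps down from 599 to 106 to 44.3 CPM across +Asn, -Asn and -Asn+Fe, while FTL is at 524 CPM or less without added iron and at 1269.9 CPM or more with it.

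TFRC, the transferrin receptor and main port for iron, changed most of the 10 against complete medium. Its RNA (ENSG00000072274.13, chromosome 3, 196027183 to 196082096 of hg38, minus strand) stood at 612, 583 and 601 CPM in +Asn. The -Asn libraries held 95.4, 109.8 and 113 CPM, and the -Asn+Fe libraries 41.9, 45.8 and 45.2 CPM. All 3 media were apart, with every -Asn library below every +Asn library and every -Asn+Fe library lower again. TFRC fell 5.64-fold without asparagine (log2 -2.49, SE 0.0779, adjusted p = 1.28e-13). It fell a further 2.4-fold when iron was added (log2 -1.26, SE 0.0766, adjusted p = 4.27e-09), which put it 13.5-fold below complete medium (log2 -3.76, SE 0.0828, adjusted p = 1.16e-15). Without -Asn replicate 1 the first of these was log2 -2.43 and the second -1.32. In bulk RNA, fewer cells with a transcript and less of it per cell cannot be told apart.

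STEAP3, the endosomal ferrireductase that turns ferric into ferrous iron, was lower in both asparagine-free media. Its RNA (ENSG00000115107.20, chromosome 2, 119223831 to 119265652, plus strand) was at 30.4, 27.9 and 29.8 CPM in +Asn and at 10.5, 8.99 and 9.45 CPM in -Asn. In -Asn+Fe it was at 10.1, 10.9 and 8.35 CPM. Both asparagine-free media lay at about the same level, with overlapping libraries, and well under the complete medium. STEAP3 fell 3.05-fold in -Asn (log2 -1.61, SE 0.104, adjusted p = 9.30e-10) and was 3-fold lower in -Asn+Fe than in +Asn (log2 -1.59, adjusted p = 8.06e-10), while the 2 asparagine-free media differed by log2 0.02 (SE 0.108, adjusted p = 0.906). An antisense gene, STEAP3-AS1, shares 500 exon bases with it and held 0.572% as many counts, and the strand setting of the counting is not given in the sources used here.

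SLC11A2, also called DMT1, carries ferrous iron out of the endosome into the cytosol. Its RNA (ENSG00000110911.16, chromosome 12, 50979401 to 51028566, minus strand) was at 52.8, 54.8 and 51.1 CPM in +Asn, at 39.9, 43.6 and 44.5 CPM in -Asn, and at 40.4, 39.0 and 40.1 CPM in -Asn+Fe. The +Asn libraries were above all others, and the asparagine-free media overlapped. The drop was small next to that of TFRC: 1.24-fold in -Asn (log2 -0.31, SE 0.0695, adjusted p = 0.00104) and 1.33-fold in -Asn+Fe against +Asn (log2 -0.41, SE 0.0699, adjusted p = 7.44e-05). The asparagine-free media differed by log2 -0.10 (adjusted p = 0.304). Scaling by library totals alone ended both calls, at log2 -0.10 (adjusted p = 0.236) and -0.15 (adjusted p = 0.0733). That scaling moved the median of all genes by 0.21, 0.05 and 0.25 on the log2 scale in -Asn vs +Asn, -Asn+Fe vs -Asn and -Asn+Fe vs +Asn. The share of calls that were higher went from 50.7% to 65.7%, from 45.4% to 54.9% and from 50.8% to 66.9% in the same order.

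TFRC has 1 start in RefSeq, at a place inside an H3K4me3 region, and the 250 bases before it are printed because this RNA moved most against complete medium. The window is chr3:196082091-196082340 on the minus strand of GRCh38.p14, and capitals mark ACGTG, the core of the hypoxia response element, at positions -88 to -84 from the start and the TATA box, whose letters are TATAAA, at -33 to -28.
TFRC promoter: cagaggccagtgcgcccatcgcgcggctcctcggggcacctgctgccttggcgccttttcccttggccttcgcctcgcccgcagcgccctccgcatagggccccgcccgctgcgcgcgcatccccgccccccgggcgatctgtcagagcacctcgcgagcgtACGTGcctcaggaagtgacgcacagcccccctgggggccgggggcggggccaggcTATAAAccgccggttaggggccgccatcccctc
On either strand, ACGTG occurs in 18.5% and TATAAA in 10.7% of 35116 RefSeq promoter windows of this length. Each is a match of letters and not a shown binding site.

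FTH1 and FTL encode the heavy and light chains of ferritin, the shell that holds iron: the heavy chain oxidises ferrous iron and the light chain helps form the mineral core. Both RNAs rose when iron was added. FTH1 (ENSG00000167996.16, chromosome 11, 61959718 to 61967634, minus strand) was at 347, 330.3 and 342 CPM in +Asn, at 954, 697 and 707 CPM in -Asn, and at 1068, 1165 and 1063 CPM in -Asn+Fe. The 3 media did not overlap, and the highest -Asn library was replicate 1. FTH1 rose 2.31-fold without asparagine (log2 1.21, SE 0.102, adjusted p = 2.67e-08) and 1.40-fold more with iron (log2 0.48, SE 0.101, adjusted p = 0.00179). That made 3.23-fold over complete medium (log2 1.69, SE 0.104, adjusted p = 3.34e-10). Leaving out -Asn replicate 1 gave log2 1.04 for the first step and 0.66 for the second, both still called.

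FTL (ENSG00000087086.15, chromosome 19, 48965309 to 48966879, plus strand) was at 391, 376 and 365 CPM in +Asn and at 524, 409 and 394 CPM in -Asn. With iron it was at 1269.9, 1362 and 1339 CPM. The -Asn+Fe libraries stood far above all others, whereas the lowest -Asn library was only just above the highest +Asn library. FTL rose 2.99-fold when iron was added (log2 1.58, SE 0.0954, adjusted p = 3.99e-09) and lay 3.50-fold over complete medium (log2 1.81, SE 0.0961, adjusted p = 5.29e-11). The step from +Asn to -Asn passed narrowly, at 1.17-fold (log2 0.23, SE 0.0934, adjusted p = 0.0452). It was lost without -Asn replicate 1, at log2 0.08 (adjusted p = 0.168). Leaving out any 1 of the +Asn or -Asn+Fe libraries ended that call as well, with adjusted p between 0.0598 and 0.191, and DESeq2 gave an adjusted p of 0.0520.

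The ferritin chains can be set against each other inside each library, where scaling between libraries cancels. The ratio of FTH1 to FTL counts, which is not corrected for length and is read only across media, was 0.888, 0.877 and 0.937 in +Asn. It was 1.82, 1.71 and 1.80 in -Asn, then 0.841, 0.855 and 0.794 in -Asn+Fe. Every -Asn library was above every other library, and the -Asn+Fe libraries were a little below the +Asn ones. The log2 ratio differed by 0.98 from +Asn to -Asn, by -1.10 from -Asn to -Asn+Fe and by -0.12 from +Asn to -Asn+Fe. An exact two-sided permutation test gave p = 0.10 for each, the smallest that 3 libraries against 3 allow. Replicate 1 of -Asn, in which both chains were high, had the highest of the 3 ratios of its medium.

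The ratio of TFRC to FTH1 counts, uptake against storage, spanned the media more widely. It was 1.76, 1.77 and 1.75 in +Asn, 0.1, 0.158 and 0.160 in -Asn, then 0.0392, 0.0393 and 0.0425 in -Asn+Fe. Those groups did not overlap, and -Asn replicate 1 was the lowest of its medium. On the log2 scale the differences were -3.69, -1.76 and -5.45 for -Asn vs +Asn, -Asn+Fe vs -Asn and -Asn+Fe vs +Asn, again with the smallest exact p of 0.10 each. Without -Asn replicate 1 the first was -3.47 and the second -1.98.

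**Figure D2:**
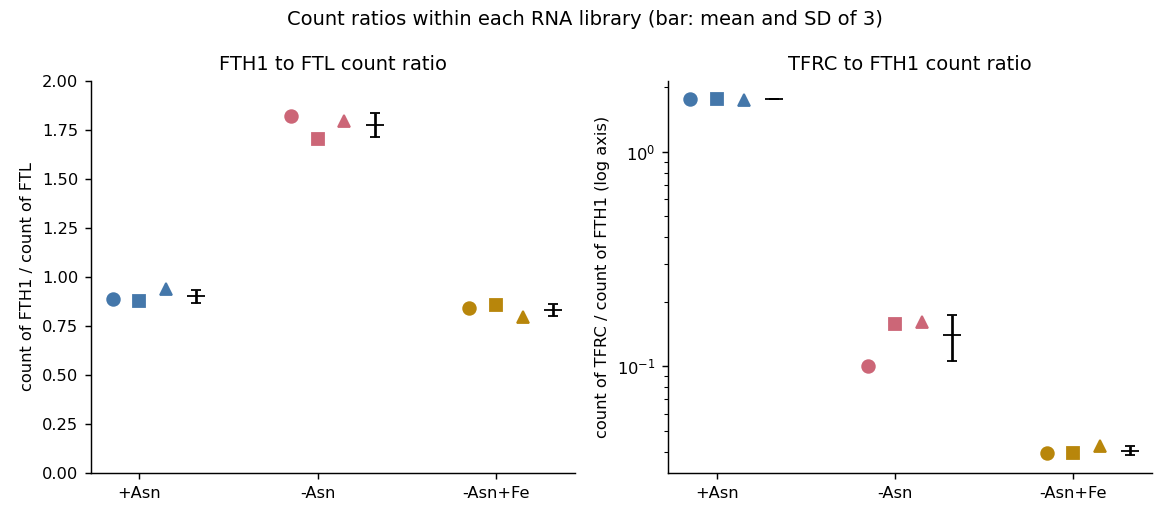
Ratio of FTH1 to FTL counts (left, linear axis from 0) and of TFRC to FTH1 counts (right, log axis) in each RNA library, with the mean and SD of 3 as bars. The left panel is high in -Asn alone (1.71 to 1.82), and the right panel steps down from about 1.76 in +Asn to 0.0425 or less in -Asn+Fe.

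Reads of ferritin genes can be shared with copies. The 25 FTH1 pseudogene rows on primary chromosomes summed to between 0.709% and 1.19% of FTH1 counts per library, and the 16 FTL pseudogene rows to between 0.138% and 0.245% of FTL counts. Adding them to the parent genes changed no call of FTH1 or FTL. The setting for reads that match more than 1 place is not given, so shared reads may be in neither row. Adding the rows cannot show such reads. BEST1 on the opposite strand shares 1267 exon bases with FTH1 and held 1.63% as many counts. The strand setting is not given either, so reads in those shared bases may be in neither row. The BEST1 count cannot show such reads.

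The FTL window before its single RefSeq start, chr19:48965059-48965308 on the plus strand of GRCh38.p14, is printed because FTL had the largest change of the 10 when iron was added. Capitals mark CCAAT boxes, which lie on the reverse strand and so read ATTGG at positions -124 to -120 and -81 to -77, and ACGTG, also on the reverse strand, which reads CACGT at -11 to -7.
FTL promoter: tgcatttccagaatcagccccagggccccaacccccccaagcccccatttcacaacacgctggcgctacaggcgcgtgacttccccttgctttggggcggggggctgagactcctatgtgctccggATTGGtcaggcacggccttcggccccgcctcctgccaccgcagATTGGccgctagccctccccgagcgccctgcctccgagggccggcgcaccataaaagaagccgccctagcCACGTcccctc
CCAAT occurs in 32% of the 35116 windows. Within the first 50 transcribed bases, FTL holds the letters of an iron-responsive element: an unpaired C, 5 bases, a loop of CAGTGN and 5 bases that pair with those before the loop. Its unpaired C is base 33 of the transcript, where the pattern begins. The stretch printed starts a few bases before it and spans bases 29 to 49, chr19:48965337-48965357, with the loop in capitals.
FTL iron-responsive element: cttgcttcaaCAGTGTttgga
This pattern was found in the first 50 bases of 8 of 35116 starts (0.0228%), and FTL was the one match among the 9 members with an entry. Elements further into a transcript or in its 3′ end lie outside the bases searched.

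NCOA4, the receptor that hands ferritin to the autophagosome so that its iron is released, passed in no comparison. Its RNA (ENSG00000266412.5, chromosome 10, 46005088 to 46030714, minus strand) was at 297, 297 and 296 CPM in +Asn, at 296, 304 and 328 CPM in -Asn, and at 320.4, 339 and 300.1 CPM in -Asn+Fe. The -Asn libraries overlapped both other media. The differences were log2 0.06 in -Asn vs +Asn (SE 0.0690, adjusted p = 0.452), 0.05 in -Asn+Fe vs -Asn (SE 0.0690, adjusted p = 0.646) and 0.11 in -Asn+Fe vs +Asn (SE 0.0691, adjusted p = 0.175). With library totals alone, -Asn and -Asn+Fe were each called above +Asn, at log2 0.27 (adjusted p = 0.00230) and 0.36 (adjusted p = 0.000165). The -Asn+Fe vs +Asn difference was also called without -Asn replicate 1, at 0.12 (adjusted p = 0.0336), and in a fit of only the libraries compared, at 0.12 (adjusted p = 0.0327).

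SLC40A1, ferroportin, is the exporter of iron from cells, and its RNA was the scarcest of the 10. Its counts (ENSG00000138449.10, chromosome 2, 189560579 to 189583758, minus strand) were 17, 22 and 19 in +Asn, 12, 20 and 16 in -Asn, then 19, 14 and 6 in -Asn+Fe, or 0.170 to 0.633 CPM over all 9 libraries. At this depth no difference passed, with log2 -0.45 (SE 0.386, adjusted p = 0.331), -0.18 (SE 0.407, adjusted p = 0.779) and -0.63 (SE 0.398, adjusted p = 0.179) in the order used above. The ratio of summed counts in -Asn+Fe to +Asn was 0.650, with a 95% interval of 0.422 to 0.993 that covers counting error only.

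The RNAs of both iron regulatory proteins fell without asparagine, and neither passed the test when iron was added. ACO1, iron regulatory protein 1 and the cytosolic aconitase (ENSG00000122729.19, chromosome 9, 32384603 to 32454769, plus strand), was at 45.3, 42.7 and 44.0 CPM in +Asn. It was at 15.3, 17.0 and 17.4 CPM in -Asn and at 16.0, 17.6 and 18.6 CPM in -Asn+Fe. As with STEAP3, the asparagine-free media overlapped each other and lay far below +Asn. ACO1 fell 2.66-fold in -Asn (log2 -1.41, SE 0.0838, adjusted p = 3.30e-10) and was 2.53-fold lower in -Asn+Fe than in +Asn (log2 -1.34, SE 0.0839, adjusted p = 4.30e-10). Between the asparagine-free media the difference was log2 0.07 (SE 0.0855, adjusted p = 0.591).

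IREB2, iron regulatory protein 2, is the one whose protein FBXL5 degrades. Its RNA (ENSG00000136381.13, chromosome 15, 78437431 to 78501453, plus strand) was at 273, 262 and 257 CPM in +Asn, at 132, 184 and 189 CPM in -Asn, and at 209, 195 and 203 CPM in -Asn+Fe. No medium overlapped another, and -Asn replicate 1 was the lowest library of all. IREB2 fell 1.57-fold in -Asn (log2 -0.65, SE 0.103, adjusted p = 4.02e-05), or by 0.51 on the log2 scale without replicate 1. Between -Asn and -Asn+Fe it differed by log2 0.26 (SE 0.102, adjusted p = 0.0605), and by 0.13 (adjusted p = 0.0678) without that replicate. That step was called with library totals alone (0.31, adjusted p = 0.0427), with no filter on low counts (0.25, adjusted p = 0.0143) and without -Asn replicate 2 (0.33, adjusted p = 0.0490) or 3 (0.37, adjusted p = 0.0158). In -Asn+Fe it was 1.31-fold lower than in +Asn (log2 -0.38, SE 0.102, adjusted p = 0.00359), a call that library totals alone ended (-0.13, adjusted p = 0.309).

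FBXL5 is the iron-sensing subunit of the ligase that removes IREB2. Its RNA (ENSG00000118564.14, chromosome 4, 15604539 to 15681679, minus strand) was at 44.8, 43.7 and 41.3 CPM in +Asn, at 49.5, 57.5 and 59.6 CPM in -Asn, and at 63.1, 63.5 and 64.1 CPM in -Asn+Fe. Its order was the reverse of TFRC, lowest in +Asn and highest in -Asn+Fe, with no overlap between media. FBXL5 rose 1.28-fold in -Asn (log2 0.36, SE 0.0766, adjusted p = 0.000620) and lay 1.47-fold over +Asn in -Asn+Fe (log2 0.56, SE 0.0767, adjusted p = 7.24e-06). The step with iron did not pass, at log2 0.19 (SE 0.0759, adjusted p = 0.0621). It was called with library totals alone (0.24, adjusted p = 0.0323) and without -Asn replicate 3 (0.26, adjusted p = 0.0260). FAM200B, on the opposite strand, shares 18 exon bases with FBXL5 and held 18.3% as many counts.

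The FBXL5 window, chr4:15655358-15655607 on the minus strand of GRCh38.p14, is printed because it was the only one of the members' windows to hold the E-box CACGTG or TGACNNNGC, the core of the antioxidant response element. Capitals mark CACGTG at -120 to -115, with ACGTG inside it on both strands, and TGACNNNGC on the reverse strand at -127 to -119, which overlaps the E-box by 2 bases.
FBXL5 promoter: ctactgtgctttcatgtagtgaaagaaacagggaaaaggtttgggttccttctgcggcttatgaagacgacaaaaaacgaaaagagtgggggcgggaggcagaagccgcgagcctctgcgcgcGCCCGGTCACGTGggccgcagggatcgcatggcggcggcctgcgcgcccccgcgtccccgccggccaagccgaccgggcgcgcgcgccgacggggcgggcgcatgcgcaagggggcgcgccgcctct
CACGTG occurs in 6.34% and TGACNNNGC in 10.9% of the 35116 windows. RefSeq windows were found for 9 of the 10 genes, FTH1 being the one with no entry in the table used. TGATGNAA, TGANTCA and GGGCGG, found in 3.14%, 6.57% and 42.6% of windows, were searched as well and are not marked.

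**Figure D3:**
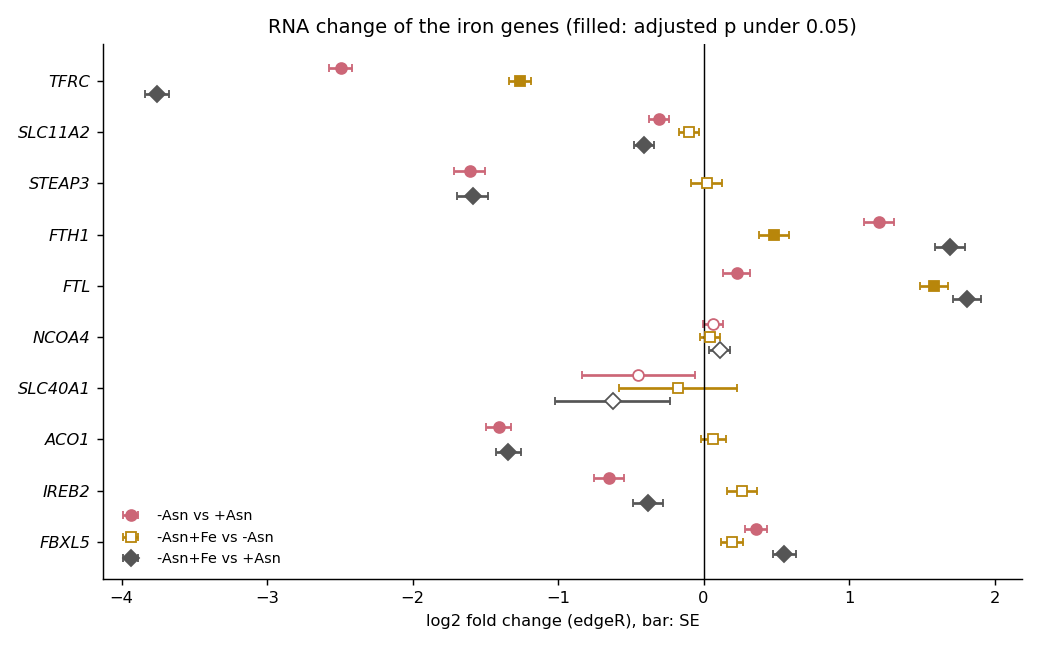
Log2 fold change with its standard error for each gene in the 3 comparisons of media; filled symbols have an adjusted p under 0.05. TFRC lies farthest left (-3.76 in -Asn+Fe vs +Asn), FTL lies at 1.58 in -Asn+Fe vs -Asn, and ACO1 and STEAP3 lie at -1.41 and -1.61 in -Asn vs +Asn.

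Levels of different genes were compared as CPM per kilobase of exon, with the exon length of the gene model in the count table. The order rests on that length, which need not be that of the mRNA present: 871 bases for FTL and 2004 for FTH1. Reads in the 1267 bases that FTH1 shares with BEST1 may be missing from its level, which was not tested. Without division by length, FTH1 was above FTL in -Asn alone, at 786 against 442 CPM. Per kilobase, FTL was highest in all 3 media, at 434 ± 15 in +Asn, 508 ± 81.7 in -Asn and 1519.5 ± 54.9 in -Asn+Fe. FTH1 came next at 169.7 ± 4.38, 392 ± 72.7 and 548 ± 28.5, and its -Asn libraries overlapped those of FTL on this scale. TFRC ranked 3 in +Asn at 76.8 ± 1.89, just above NCOA4 at 72.7 ± 0.146, and no library of one overlapped the other. In -Asn, TFRC ranked 5 at 13.6 ± 1.22, where its libraries overlapped IREB2 above it (15.6 ± 2.90) and FBXL5 below it (12.1 ± 1.17). In -Asn+Fe it ranked 6 at 5.68 ± 0.270, below FBXL5 (13.9 ± 0.108) and above SLC11A2 (4.03 ± 0.0775), with no overlap. ACO1 and STEAP3 overlapped each other in both asparagine-free media, between 1.83 and 2.46, and SLC40A1 was last in all media at 0.125 or less.

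The genes whose pattern over the 9 libraries was most like that of a member were ranked by the root mean square distance of centred log2 CPM, among 10104 genes whose mean reached 5 CPM. For TFRC they were MCM10 at 0.129, TIMELESS at 0.141 and BRIP1 at 0.141. MCM10, for instance, had means of 150.5, 30.2 and 11.5 CPM in +Asn, -Asn and -Asn+Fe. For FTH1 they were NFIL3 at 0.0816, RPS27L at 0.0842 and AC074143.1 at 0.112, with NFIL3 at 14.1, 35.4 and 47.8 CPM. For FTL the nearest were farther off, CD40 at 0.174, TBXAS1 at 0.181 and COL9A2 at 0.184, and CD40 was at 4.01, 4.10 and 12.8 CPM.

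H3K4me3 was deposited as positions of called peaks, so presence and covered length can be read but not signal height. At the outer 5′ end of 8 of the 10 genes, a peak was called in all 9 libraries within 1 kb. SLC11A2 and SLC40A1 were the exceptions, with regions that begin 1739 and 2218 bases inside the outer end and that contain a RefSeq start, so none of the 10 lacked a promoter region in any medium. Width was tested with limma over 13883 regions called in every library, of which 12 belonged to the 10 genes. One of the 12 was not at a 5′ end. It lay inside NCOA4, 6947 bases from the outer end and 3034 from the nearest RefSeq start, and passed in no comparison. In -Asn vs +Asn, 3 of those 12 were wider and 0 narrower, against 14.7% and 1.43% of all regions tested. In -Asn+Fe vs +Asn it was again 3 and 0, against 11.6% and 1.84%. Between -Asn+Fe and -Asn 0 of the 12 passed, as did 0% of all regions, although 1046 of the 13883 had an unadjusted limma p under 0.05. All regions together were a median log2 0.09 wider in -Asn and 0.07 in -Asn+Fe than in +Asn. Centring each library on its median moved the wider share of called regions from 91.2% to 54.0% and from 86.3% to 54.2%.

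FTH1 had the clearest H3K4me3 change of the 10. Its region (chromosome 11, 61965154 to 61968835 of hg38) covered 2471, 2517 and 2475 bases in +Asn, 3331, 3614 and 3459 in -Asn, then 3647, 3535 and 3522 in -Asn+Fe. The +Asn libraries were shorter than all others, and the asparagine-free media overlapped. It was wider by log2 0.48 in -Asn (SE 0.0403, adjusted p = 5.41e-05) and by 0.52 in -Asn+Fe (SE 0.0403, adjusted p = 3.77e-05), each against +Asn, while the asparagine-free media differed by 0.04 (adjusted p = 0.871). Centred on library medians the first of these was 0.39 (adjusted p = 3.36e-05). Both edges lay farther out: the upstream edge lay 861 to 910 bases before the 5′ end in complete medium, 1143 to 1190 bases without asparagine and 1054 to 1201 bases with iron added. The downstream edge went from between 1560 and 1655 bases into the gene to between 2140 and 2441 and between 2424 and 2480. Another annotated gene, AP003733.4, also starts in this region and had 112 counts over all 9 RNA libraries.

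At FTL one width comparison passed. Its region (chromosome 19, 48963713 to 48967215) covered 1883, 2237 and 2004 bases in +Asn, 2103, 3090 and 2794 in -Asn, then 3223, 2861 and 3045 in -Asn+Fe. The +Asn and -Asn+Fe libraries were apart and those of -Asn overlapped both. Only the difference of -Asn+Fe from +Asn passed, at log2 0.58 (SE 0.122, adjusted p = 0.0128). It did not pass when the outer span replaced the covered length (0.47, adjusted p = 0.174) or without -Asn+Fe replicate 1 (0.54, adjusted p = 0.0530). For -Asn vs +Asn the value was 0.37 (adjusted p = 0.0654), and 0.53 (adjusted p = 0.00332) without the H3K4me3 library of -Asn replicate 1. That library is not the RNA library of the same number that stood apart. It had 15554 regions, with a median of 1677 bases over regions called in every library. The other -Asn libraries had 17448 and 16507 regions, with medians of 1840 and 1761 bases. The +Asn medians were 1665, 1672 and 1619 bases. The part of this in the width values was not tested. Between -Asn+Fe and -Asn the value was 0.21 (adjusted p = 0.748), beside the 2.99-fold rise of FTL RNA in that comparison. The upstream flank varied most: a separate small peak of 261, 387 or 300 bases lay there in 1 library of each medium, and in -Asn replicate 2 and -Asn+Fe replicate 1 a single peak reached 1423 and 1596 bases upstream. An lncRNA gene, AC026803.2, also starts in this region and had 207 counts over all 9 RNA libraries.

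At TFRC no width difference passed, beside the 5.64-fold drop of its RNA in -Asn. The region (chromosome 3, 196080137 to 196082819) covered 2573, 2471 and 2317 bases in +Asn, 2232, 2582 and 2497 in -Asn, then 2447, 2611 and 2449 in -Asn+Fe. All 3 media overlapped. The log2 differences were -0.01 (SE 0.0622, adjusted p = 0.918), 0.04 (adjusted p = 0.939) and 0.03 (adjusted p = 0.794).

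FBXL5 had 2 regions. The one at its outer 5′ end (chromosome 4, 15680097 to 15682788) also holds the 5′ end of FAM200B, and the mark cannot be assigned to one of them. It was wider by log2 0.31 in -Asn (SE 0.0639, adjusted p = 0.0105) and by 0.31 in -Asn+Fe (adjusted p = 0.0119) than in +Asn. The other, at the RefSeq start (15652971 to 15656092), covered 2611, 2568 and 2782 bases in +Asn and 2944, 3066 and 2848 in -Asn, a log2 difference of 0.15 (adjusted p = 0.0470) that ended in 11 of 12 other settings. In -Asn+Fe it covered 2652, 2791 and 2678 bases, which overlapped +Asn.

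The remaining regions did not pass in any comparison. ACO1, whose RNA fell 2.66-fold, had a region 1194 ± 44.2 bases wide in +Asn and 1248 ± 76.2 in -Asn (log2 0.06, adjusted p = 0.582). STEAP3 had 1488 ± 78.4 and 1399 ± 73.1 bases (log2 -0.09, adjusted p = 0.384). IREB2 had 2424 ± 30.0 and 2303 ± 43.0 bases (log2 -0.07, adjusted p = 0.272), with no overlap between these media, and was called narrower only after centring (-0.16, adjusted p = 0.0496). The NCOA4 region at the outer 5′ end differed by 0.22 (adjusted p = 0.106). Without the H3K4me3 library of -Asn replicate 1, the narrowest of its medium in the median, it differed by 0.30 (adjusted p = 0.0392). SLC11A2 and SLC40A1 differed by 0.18 (adjusted p = 0.390) and 0.35 (adjusted p = 0.144).

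**Figure D4:**
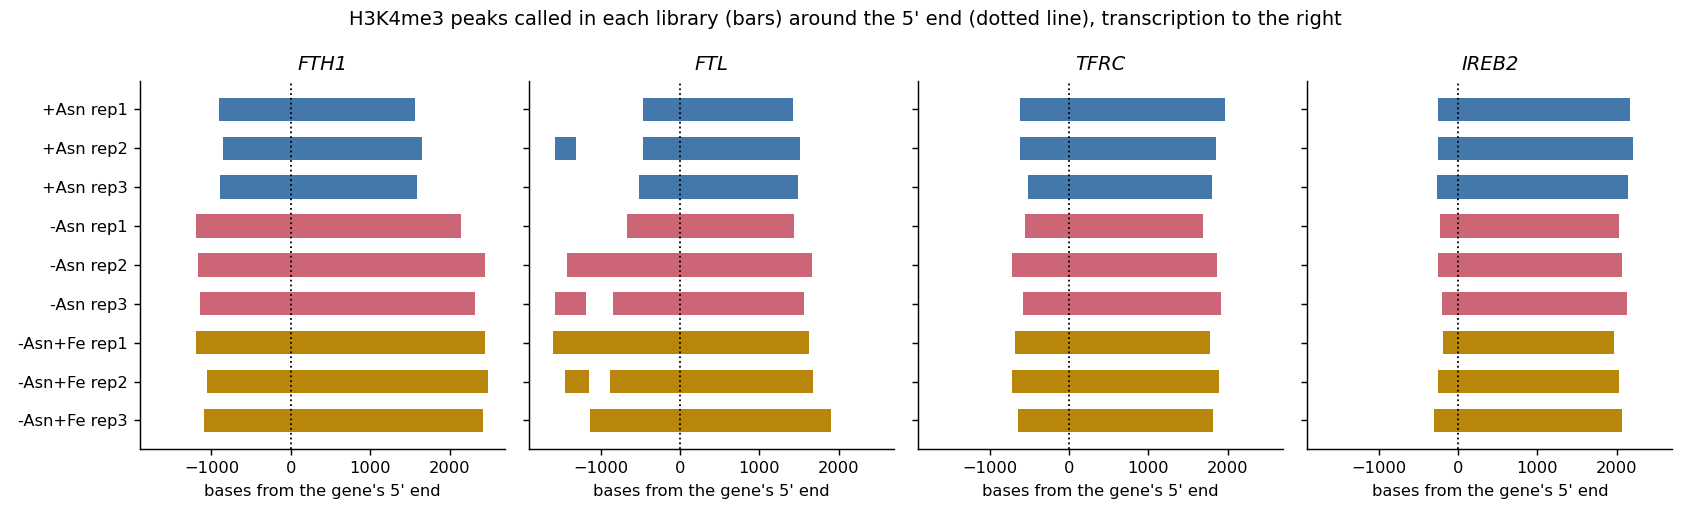
H3K4me3 peaks called in each of the 9 libraries around the 5′ ends of FTH1, FTL, TFRC and IREB2, with distance in bases on the x axis, 1 row per library and transcription to the right. FTH1 peaks reach 2140 bases or more into the gene in every asparagine-free library and at most 1655 in +Asn, while TFRC peaks overlap between media.

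Other genes of iron handling came from a list of 40, of which 28 passed the low-count filter. In -Asn vs +Asn 7 rose, 11 fell and 10 did not pass, with a median log2 of -0.09, beside 61.2% of all genes that passed. In -Asn+Fe vs -Asn these counts were 7, 6 and 15 (median 0.02), beside 30.8% of all genes. In -Asn+Fe vs +Asn they were 8, 15 and 5 (median -0.24), beside 64.7%. The smaller groups below are read against the same shares. Of the 5 listed genes of export and the hepcidin axis, 0 passed the filter on low counts. Among 4 genes of the FBXL5 ligase and NCOA4 turnover, SKP1, CUL1 and HERC2 fell in -Asn, where 30.2% of all genes fell, and RBX1, its ring-finger subunit, was lower by log2 0.50 in -Asn+Fe than in -Asn (adjusted p = 0.00411). HERC2 was at 27.7 CPM in -Asn replicate 1 and at 57.2 and 51.0 CPM in the other -Asn libraries. Of 3 tested further mRNAs known to hold an iron-responsive element, 2 fell in -Asn, where 30.2% of all genes fell. EPAS1, the hypoxia factor HIF-2α, went from 11.3, 12.2 and 11 CPM in +Asn to 4.32, 4.18 and 4.89 in -Asn (log2 -1.36, adjusted p = 2.03e-08), and was at 4.05 to 4.12 CPM with iron.

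In the uptake list of 9 tested genes, 2 rose and 2 fell in -Asn, where 61.2% of all genes passed, and 3 rose and 1 fell with iron, where 30.8% passed. TF, transferrin itself, rose from 0.749, 0.893 and 1.15 CPM in +Asn to 2.91, 3.17 and 2.72 CPM in -Asn and 4.47, 4.18 and 4.15 CPM in -Asn+Fe. Its step with iron (log2 0.54, adjusted p = 0.0152) was lost without -Asn replicate 3 (adjusted p = 0.0510) or -Asn+Fe replicate 1 (adjusted p = 0.0579). MCOLN1, a lysosomal channel that passes iron, fell by 0.54 on the log2 scale with iron (adjusted p = 0.00277).

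Among chaperones and mitochondrial iron genes, PCBP4, of the family of proteins that deliver iron to ferritin, was at 1.5, 0.777 and 1.26 CPM in +Asn and at 24.3 to 25.5 CPM in -Asn (log2 4.38, adjusted p = 4.56e-13). SLC25A28, mitoferrin 2, fell by 1.05 on the log2 scale in -Asn (adjusted p = 3.29e-08).

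HMOX1, the haem oxygenase that frees iron from haem, had the widest span of these genes. Its counts summed over 3 libraries were 2 in +Asn, 17 in -Asn and 1527 in -Asn+Fe. The scaled ratio of -Asn to +Asn was 7.54 with a 95% counting interval of 1.79 to 67.3, and that of -Asn+Fe to -Asn was 98.0 with an interval of 61 to 169. BACH1, the haem-binding repressor of HMOX1 and ferritin genes, rose by log2 0.58 with iron (adjusted p = 0.00159), from 74.5, 109 and 113 CPM to 153, 140.5 and 149 CPM, and NFE2L2, their activator, rose in all 3 comparisons, from 69.4 to 81.5 CPM in +Asn to 191 to 197 CPM in -Asn+Fe. Leaving out 1 library at a time gave log2 0.42 to 0.70 for that BACH1 step. In -Asn vs +Asn, BACH1 did not pass (0.05, adjusted p = 0.712), but was called without -Asn replicate 1 (0.22, adjusted p = 0.00169).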

How the data were processed

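RNA was measured in 9 libraries and H3K4me3 in 9, with groups and replicate numbers from the labels. The authors deposited raw read counts per gene, for which the submitters' processing notes name hg38, STAR 2.7.2a, bcl2fastq and featureCounts (Subread 1.6.5). Neither strand nor multi-mapping settings are given there. The deposited H3K4me3 table, a file of 13 fields under 12 names, holds peak positions with no score, for which those notes name hg38, MACS2 2.2.7.1, Bowtie2 2.4.4 and Picard 2.18.26, merged by the authors into 19279 regions. The sources used here give neither peak threshold nor use of inputs, and columns called untreated were read as complete medium.

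The 10 genes, the lists, the comparisons and the tests were chosen with earlier results of these data known. The RNA test was that of edgeR 4.0.16 under R 4.3.3 (TMM, filterByExpr, robust quasi-likelihood fit over 9 libraries, 3 contrasts, 6 residual degrees of freedom, biological coefficient of variation 0.0871). CPM used the filtered library size times its TMM factor. Log2 covered width was tested with limma 3.58.1 (trend, robust). Ratios were compared by exact permutation. Scripts ran in Python 3.11.15 (pandas 2.3.3, numpy 2.4.6, scipy 1.17.1, matplotlib 3.10.9), and the fits were tested on simulated data. Simulated RNA changes were placed on 50 genes per fold, drawn at random whatever their count, among about 17510. Of these, the fit called 12% to 26% at 1.25-fold, 64% to 66% at 1.5-fold and 74% to 78% at 2-fold. Far more genes passed in the real data, which makes the adjusted p less strict there. These shares are therefore not those of the 10 members. A small change that did not pass may still have been missed. Among other iron genes, those with the largest change per direction among called genes were named. Some genes and values were singled out after they were seen: SKP1, CUL1, HERC2, NFE2L2 and the marker genes named. Motifs and the iron-responsive pattern were chosen after the promoter sequences were seen, and exon-length, gene-overlap and peak-edge checks were added after the data were seen. Promoters and starts are from RefSeq, GRCh38.p14. Alternatives were DESeq2 1.42.0, other scaling factors and filters, only the libraries compared, a replicate block, added pseudogene counts, outer spans, centred widths and leaving out each library. One gene that the naming rule took is not reported here.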

Additional observations from a re-analysis of the deposited data

How the results depend on the processing

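Direction was kept by every called result under every alternative run. For single genes, 881 of the RNA values stayed on their side of the threshold, 11 passed only under an alternative and 19 were lost. For H3K4me3 widths of single regions these numbers were 380, 3 and 13. With library totals alone, 4 members were called higher in -Asn+Fe vs -Asn in place of 2, and 3 lower in -Asn+Fe vs +Asn in place of 5. Leaving out each library gave 2 to 4 members called higher in -Asn+Fe vs -Asn. Regions of changed width ranged from 1161 to 2689 in -Asn vs +Asn (2241 with all libraries), the low end without -Asn replicate 2, with 1205 without -Asn replicate 3 and 1277 without +Asn replicate 3. They ranged from 0 to 1 in -Asn+Fe vs -Asn, the 1 without -Asn+Fe replicate 1, and from 945 to 2146 in -Asn+Fe vs +Asn (1865 with all), the low end without that same library, with 1092 without +Asn replicate 3 and 1096 without -Asn+Fe replicate 3. The cause was not tested. Same-numbered libraries did not deviate together (correlations over genes from -0.36 to 0.25 for RNA and from -0.21 to 0.09 for widths), so the numbers were not taken as a pairing. With a replicate block 10769, 5155 and 11380 genes were called in place of 10971, 5525 and 11609, and 1606, 0 and 1346 regions. The block ended the FTL call in -Asn vs +Asn (log2 0.22, adjusted p = 0.0552) and that of the FBXL5 region at the RefSeq start (0.15, adjusted p = 0.0916). RefSeq starts in place of outer 5′ ends, an alternative chosen after seeing the data, put a peak at 9 genes. Depth limits SLC40A1, at 6 to 22 counts a library, and widths say nothing of signal height.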
